A study of Mus musculus with 16 samples.

Results

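NKT cells of the mouse spleen were compared with CD8aaT cells of RTOC, 3 arrays a population, which is 6 of the 16 arrays of a series on innate-like and adaptive lymphocytes. The members were taken by their sample titles alone. NKT cells were about 100000 splenocytes a sample, sorted as CD3+CD4+NK1.1+ from wild type C57BL/6 mice. CD8aaT cells were about 50000 a sample, sorted as TCRb+CD8a+CD8b- from RTOC after selection with a high dose of the agonist Smcy, which the labels write as 10 mM. RTOC is not spelled out in the labels and stands for reaggregate thymic organ culture in thymocyte work. The strain of the cultured cells, the age and number of animals and the number of cultures are not given. A second pair of the same sources served to show how far spleen and RTOC cells differ in adaptive T cells, namely CD4T (n = 3), about 100000 splenic CD3+CD4+NK1.1- cells a sample from wild type C57BL/6 mice, and CD8abT (n = 3), about 50000 RTOC cells a sample sorted as TCRb+CD8a+CD8b+ after selection with 100 nM Smcy. Every NKT array is a spleen array and every CD8aaT array an RTOC array, so in the direct comparison lineage, source, sorting gate and agonist cannot be told apart. The NKT gate rests on CD4 and NK1.1, so NKT cells that lack either were not measured.

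NKT cells carry a T cell receptor that recognises lipids on CD1d, depend on the transcription factor PLZF (gene Zbtb16) and are known for releasing cytokines soon after stimulation. T cells with the CD8αα homodimer are known from the gut epithelium, and their precursors are selected in the thymus by strong self ligands. Both are called innate-like because they take on effector or memory features during their development rather than after infection.

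All values are log2 intensities of Affymetrix probe sets, quantile normalized over the 6 arrays, so that a difference of 1 is 2-fold. The lower quartile, median and upper quartile of the 12422 probe sets were 4.07, 5.31 and 6.73. Before this step the array medians of the deposited linear intensities were 50.0 to 53.3 in NKT arrays and 30.4 to 31.8 in CD8aaT arrays. Gapdh controls at the 3' and 5' ends gave a 3'/5' ratio, which rises as RNA is degraded or shortened by amplification, of 5.11 to 6.15 in NKT arrays and 7.37 to 20.9 in CD8aaT arrays, with no overlap. NKT replicates 2 and 3 were far more alike than any other pair, with an SD of their log2 difference of 0.121 against 0.311 to 0.416 within CD8aaT and 0.377 and 0.379 for the pairs with NKT replicate 1. Whether these 2 arrays hold separate samples is not known, so counts are also given with the 2 averaged into 1.

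The sort and lineage markers were read first, and they bore out the labels except for Cd4. Cd8a, the CD8 alpha chain, had 5.24, 5.37 and 5.34 in NKT arrays, against 10.02, 9.79 and 10.04 in CD8aaT arrays. The groups lay far apart, with a difference (NKT minus CD8aaT, ± SE) of -4.63 ± 0.11 and an adjusted p of 1e-05 by limma. Cd8b1, the beta chain that the CD8aaT gate leaves out and that splenic CD4+ cells lack, stood at 6.12, 5.60 and 5.61 in NKT arrays, against 5.38, 6.01 and 5.84 in CD8aaT arrays. Those ranges overlapped and the difference of 0.03 ± 0.21 did not pass the test. Klrb1c, which encodes NK1.1, has a probe set in common with Klrb1b, and it had 9.28, 9.45 and 9.48 in NKT arrays, against 6.44, 6.67 and 6.74 in CD8aaT arrays, a 6.91-fold difference.

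Zbtb16 had 7.78, 6.48 and 6.69 in NKT arrays, against 3.51, 4.01 and 4.04 in CD8aaT arrays (3.13 ± 0.34, limma adjusted p = 0.00162). Its other probe set, at 5.09 ± 0.11 in NKT arrays and 5.17 ± 0.13 in CD8aaT arrays, differed by -0.08 ± 0.12 and did not pass. Kit, the receptor for stem cell factor that marks immature and some gut-homing T cells, was the reverse, with 3.98, 4.31 and 4.32 in NKT arrays, against 7.48, 6.54 and 7.12 in CD8aaT arrays (-2.85 ± 0.24). Cd4 stood at 6.93, 7.09 and 7.09 in NKT arrays, against 6.77, 6.69 and 6.74 in CD8aaT arrays. All 3 NKT arrays lay above all 3 CD8aaT arrays, but the difference of 0.30 ± 0.10 missed the threshold at a limma adjusted p of 0.0746. In CD4T minus CD8abT the same probe set differed by 0.77 ± 0.14 and passed (limma adjusted p = 0.00363). Cd3e, a chain of the T cell receptor complex, had 8.21 ± 0.02 in NKT arrays and 8.06 ± 0.32 in CD8aaT arrays (SD, n = 3 each) and did not pass either.

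**Figure D1:**
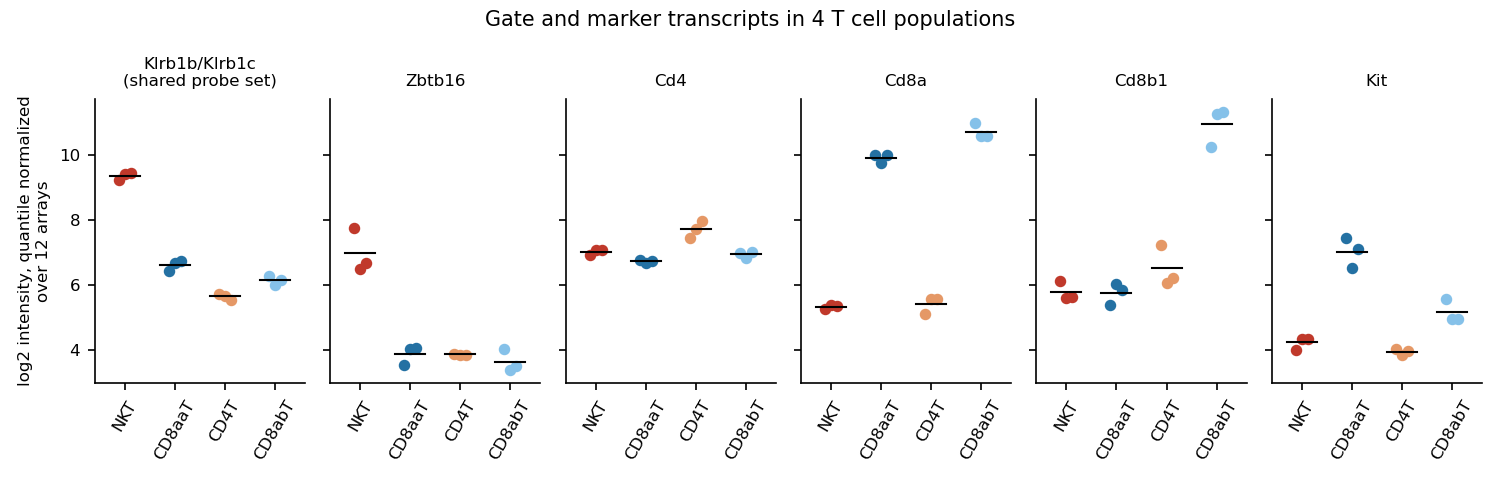
Log2 intensity, quantile normalized over 12 arrays, of 6 gate and marker transcripts in NKT, CD8aaT, CD4T and CD8abT arrays (points, 3 a population; black lines, means). The shared Klrb1b and Klrb1c probe set and Zbtb16 are highest in NKT arrays, Kit is highest in CD8aaT arrays, Cd8b1 is high in CD8abT arrays alone, and Cd4 differs little between NKT and CD8aaT arrays.

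Of the 12422 measured, 2805 passed at an adjusted p under 0.05 by limma, which is 22.6% of those tested. NKT arrays were higher in 1419 of them (11.4%) and lower in 1386 (11.2%), and 818 differed at least 2-fold (6.59%), of which 476 were higher (3.83%) and 342 lower (2.75%). The groups had no overlap in 2536 with NKT arrays above (20.4%) and in 2866 with NKT arrays below (23.1%). With NKT replicates 2 and 3 averaged, 1113 were called, 598 higher (4.81%) and 515 lower (4.15%), all of them among the 2805. The split rests on the normalization: the deposited values without a further step gave 8801 higher and 271 lower, since their median difference was 0.60, and centring on the median gave 1279 higher and 2070 lower. With the Gapdh ratio as a covariate 331 were called, 145 higher and 186 lower. Since the ratio does not overlap between the populations, this fit cannot part RNA quality from population, neither for the 331 nor for the others. Smaller counts with this covariate, here and below, are therefore not read as a measure of RNA quality, whose part was not tested. All groups being bulk samples, fewer cells of a type and less RNA per cell cannot be told apart. The 15 genes with the largest difference in each direction were taken after leaving out the genes of the sort gates, which hold Cd8a, and the immunoglobulin and T cell receptor segments, which hold Trav9d-3. All stayed called without any single array, with NKT replicates 2 and 3 averaged and without further normalization, whereas with the Gapdh covariate 12 of 15 higher and 13 of 15 lower did, and Zbtb16, Aqp9, Ms4a1, Ahr and E2f8 lost the call. Of the 203 called genes named by rank, by list or as markers, 72 lost the call without NKT replicate 2 or without NKT replicate 3. Of these 72, 44 also lost it without NKT replicate 1 or without a CD8aaT array. Those of the 72 described below are Cbfb, Ccl1, Ccl4, Ccnd2, Cd160, Cd83, Col3a1, Crtam, Ctsc, Cxcl9, Cxcr5, H2-D1, Hsph1, Icos, Ifi27l2a, Ifit1, Ifngr1, Il7r, Isg15, Itm2a, Klf10, Klrb1a, Lgals1, Ly6e, Ly9, the brighter Ms4a1 probe set, Nr4a2, S100a6, Tpi1, Trgv4 and Zbtb7b.

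**Figure D2:**
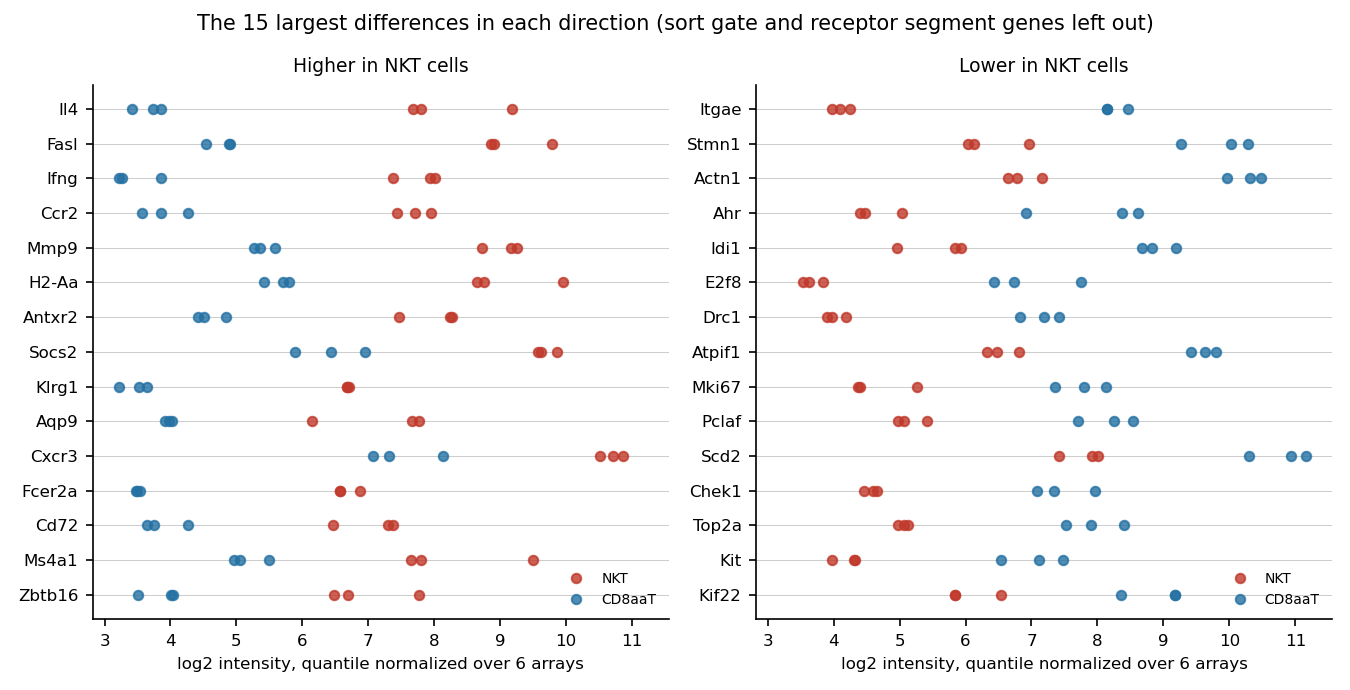
Log2 intensity, quantile normalized over 6 arrays, of the 15 genes with the largest difference in each direction once sort gate genes and immunoglobulin and T cell receptor segments are left out (red, NKT arrays; blue, CD8aaT arrays; 3 points a population and gene). The populations overlap in none of the 30 genes, which the rule that chose them required; Il4 has the largest mean difference among those higher and Itgae among those lower, and NKT replicate 1 stands apart from the other NKT arrays in several genes, Il4, Ms4a1 and Aqp9 among them.

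Outside immunoglobulin segments, of which Igkv6-23 differed by 5.67, effector cytokines and the death ligand Fasl led the genes higher in NKT cells. Il4, the cytokine that drives type 2 responses and IgE switching, had 9.18, 7.80 and 7.67 in NKT arrays, against 3.42, 3.73 and 3.85 in CD8aaT arrays. All 3 NKT arrays lay above all CD8aaT arrays, by 4.55 ± 0.38 on average, or 23.4-fold, with an adjusted p of 0.000795 by limma. Its remaining 3 probe sets differed by 0.83, 0.07 and 0.91, so the size rests on 1 probe set. Ifng, the interferon that activates macrophages, had 7.38, 7.94 and 8.02 in NKT arrays, against 3.27, 3.85 and 3.22 in CD8aaT arrays (20.2-fold). Fasl, the ligand that kills through Fas, had 9.79, 8.91 and 8.86 in NKT arrays, against 4.54, 4.90 and 4.89 in CD8aaT arrays (21.2-fold).

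Each list count of NKT minus CD8aaT below is to be read beside the shares of all probe sets, 11.4% higher and 11.2% lower. With NKT replicates 2 and 3 averaged these shares are 4.81% and 4.15%. Of 18 cytokine genes measured, 6 were higher in NKT arrays and 0 lower, with a median of 0.05 over the list. The others that rose were Csf1, a growth factor of macrophages, by 1.26 ± 0.11 and Ltb, the membrane anchor of lymphotoxin, by 1.02 ± 0.15, with 2 further genes. Among 16 genes of cytotoxic granules and death ligands 3 rose (18.8%) and 2 fell (12.5%, near the share of all probe sets), or 3 and 1 with NKT replicates 2 and 3 averaged. Prf1 (perforin, 1.25 ± 0.14) and Serpinb9, an inhibitor of granzyme B, 1.40 ± 0.24, rose beside Fasl, whereas Gzmb (granzyme B) was lower in NKT arrays at 5.43, 5.74 and 5.64 in NKT arrays, against 7.69, 7.20 and 7.47 in CD8aaT arrays. Perforin and granzyme B transcripts thus differed in opposite directions between the populations, and Ctsc, the protease that activates granzymes, fell with Gzmb (-0.99 ± 0.21).

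Receptors for chemokines followed. Ccr2, which draws cells to sites of inflammation, had 7.44, 7.70 and 7.95 in NKT arrays, against 3.57, 4.26 and 3.85 in CD8aaT arrays, and Cxcr3, a receptor for interferon-induced chemokines, had 10.51, 10.72 and 10.86 in NKT arrays, against 7.07, 8.13 and 7.31 in CD8aaT arrays. Both groups were apart on every array. Of 15 chemokine receptor genes 4 rose and 0 fell, Cxcr5 (1.07 ± 0.25) and Ccr6 (0.87 ± 0.18) being the others. Of 15 chemokines, Ccl5 rose by 1.00 ± 0.17. Cxcl9 at 0.43 ± 0.13, Ccl4 at -0.83 and Ccl1 at -0.73 also passed, but with NKT replicates 2 and 3 averaged 1 chemokine was higher and 0 lower, Cxcl9 lost the call whichever array was left out, and Ccl1 changed sign without further normalization, at 0.038.

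Transcription factors of effector and innate lineages were the next group, with 8 of 20 higher and 4 lower (8 and 2 with NKT replicates 2 and 3 averaged). Zbtb16 led, followed by Id2, an inhibitor of E proteins needed by innate lymphocytes, with 11.31 ± 0.29 in NKT arrays and 8.56 ± 0.43 in CD8aaT arrays (SD, n = 3 each). Hopx, a homeodomain protein of effector T cells, was higher by 2.37 ± 0.18 and Prdm1 (Blimp-1) by 2.12 ± 0.22. Id3, a related inhibitor of E proteins, was lower at 5.96, 5.98 and 5.90 in NKT arrays, against 7.35, 7.37 and 7.75 in CD8aaT arrays, and so was Egr2 (-1.36 ± 0.26), an early target of T cell receptor signals. Klf10 fell by 1.15. Id2 and Id3 therefore differed in opposite directions. Of 9 coreceptor and lineage genes, Gata3, required for the CD4 lineage, rose by 1.53 ± 0.27, Runx1 by 1.90 ± 0.27 and Zbtb7b (ThPOK), which commits thymocytes to the CD4 lineage, by 0.50 ± 0.10, while Cd8a and Cbfb, the partner of Runx proteins, fell (2 higher and 1 lower with NKT replicates 2 and 3 averaged).

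NK-cell receptors did not move together: 5 of 18 were higher in NKT arrays and 5 lower (4 and 1 with NKT replicates 2 and 3 averaged). Klrg1, an inhibitory receptor of effector cells, had 6.68, 6.70 and 6.68 in NKT arrays, against 3.22, 3.52 and 3.64 in CD8aaT arrays. Klrk1, which encodes the activating receptor NKG2D, had 8.07, 7.44 and 7.30 in NKT arrays, against 5.18, 5.29 and 5.15 in CD8aaT arrays. Klra3 and Klra7 of the Ly49 family rose by 2.23 ± 0.15 and 1.35 ± 0.13. In the other direction, Cd244a, a SLAM family receptor known as 2B4, had 3.79, 4.09 and 4.23 in NKT arrays, against 6.77, 6.13 and 6.60 in CD8aaT arrays, and Klrb1a, Crtam and Cd160 fell by 1.49, 1.42 and 1.12. Near-identical members of the Ly49 and Klrb1 families can share probes, and how the array separates them was not tested. Of 6 SLAM family genes 3 fell, Cd244a among them, and Ly9, at 0.55 ± 0.16, passed with all 6 arrays and lost the call whichever array was left out (0 higher and 2 lower with NKT replicates 2 and 3 averaged).

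T cell receptor transcripts and proximal signalling differed too. Of 15 pan-T cell genes 5 rose and 1 fell. Cd28, the main costimulatory receptor, had 8.76, 9.01 and 9.03 in NKT arrays, against 6.68, 6.62 and 7.10 in CD8aaT arrays, Cd2, an adhesion and costimulatory receptor, rose by 1.81 ± 0.18 and Txk, a Tec family kinase, by 1.48 ± 0.18. Cd7 fell by 2.64. Among 8 receptor segments with a probe set of 1 symbol 4 fell and 1 rose (3 and 0 with NKT replicates 2 and 3 averaged). The variable gene Trav9d-3 had 9.84, 9.66 and 9.47 in NKT arrays, against 12.79, 12.63 and 12.24 in CD8aaT arrays, and the gamma chain gene Trgv1 had 10.08 ± 0.22 in NKT arrays and 11.66 ± 0.22 in CD8aaT arrays (SD, n = 3 each). Trgv4, of the same locus, fell by 1.15. The other Trav9d-3 probe sets differed by -3.45 and 0.68, so they disagree in sign. Related segments can hybridise to the same probes, so these stand as values of the probe sets.

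Integrins and adhesion molecules split, with 11 of 27 higher and 4 lower (7 and 3 with NKT replicates 2 and 3 averaged). Itgae, the CD103 chain that holds T cells to gut epithelium, gave the largest decrease after the gate gene Cd8a, with 3.98, 4.09 and 4.24 in NKT arrays, against 8.14, 8.46 and 8.14 in CD8aaT arrays. The groups differed by -4.15 ± 0.13, or 17.7-fold (limma adjusted p = 2.61e-05), and its other probe set also fell, with a difference of -4.03. Itgb2, the beta chain of LFA-1, was higher in NKT arrays, with 10.17, 10.34 and 10.23 in NKT arrays, against 7.54, 8.19 and 7.93 in CD8aaT arrays. Vcam1 rose by 2.31 ± 0.25 and Itgb1, the beta chain of VLA-4 and other integrins, by 1.87 ± 0.20, whereas Itga4, the alpha chain of VLA-4, fell by 1.50. Cd9, a tetraspanin, fell by 1.80 and Cd82, another tetraspanin, rose by 1.62 ± 0.12. Mmp9, a gelatinase that cells use to cross basement membranes, had 8.72, 9.17 and 9.26 in NKT arrays, against 5.58, 5.27 and 5.35 in CD8aaT arrays, a 12.5-fold difference.

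Of 29 cytokine receptors 8 rose and 2 fell (4 and 1 with NKT replicates 2 and 3 averaged). Il7r, the survival receptor of resting T cells, had 10.14, 10.86 and 10.76 in NKT arrays, against 8.37, 9.61 and 8.06 in CD8aaT arrays. Il1r2, a decoy receptor, rose by 1.90 ± 0.13, Il27ra by 1.65 ± 0.19 and Csf2rb2 by 1.10 ± 0.13, and Ifngr1, a chain of the interferon gamma receptor, fell by 0.82 beside Kit. Among 14 inhibitory receptors and SOCS genes, Socs2, a brake on growth hormone and cytokine signals, had 9.86, 9.57 and 9.62 in NKT arrays, against 5.88, 6.95 and 6.43 in CD8aaT arrays, and Pdcd1 (PD-1) and Lag3, receptors that limit T cells under lasting stimulation, fell by 1.38 and 0.74. In all 2 rose and 4 fell (1 and 2 with NKT replicates 2 and 3 averaged). Of 22 costimulatory and TNF superfamily genes 6 rose and 3 fell (2 and 2 with NKT replicates 2 and 3 averaged), with Icos, a CD28 relative, at 1.70 ± 0.38 and Tnfsf8 (CD30 ligand) at -1.30 ± 0.13. Bcl2, which protects resting lymphocytes from apoptosis, had 7.52, 8.46 and 8.50 in NKT arrays, against 10.06, 9.55 and 9.51 in CD8aaT arrays, while Mcl1 and Bcl2l2 of the same family rose by 1.11 ± 0.16 and 1.12 ± 0.11. In all 4 of 21 apoptosis regulators rose (19.0%) and 2 fell (9.52%, near the share of all probe sets), or 4 and 1 with NKT replicates 2 and 3 averaged.

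Many genes of antigen presentation and of B cells were also higher in NKT arrays. Of 12 MHC class II genes 7 rose and 2 fell (6 and 0 with NKT replicates 2 and 3 averaged, 1 and 0 with the Gapdh covariate). H2-Aa, an alpha chain of class II, had 9.96, 8.66 and 8.75 in NKT arrays, against 5.79, 5.71 and 5.42 in CD8aaT arrays, and H2-Eb1, a beta chain, had 9.57, 8.75 and 8.74 in NKT arrays, against 6.80, 6.63 and 6.84 in CD8aaT arrays. The NKT arrays did not agree among themselves, replicate 1 being highest for H2-Aa. Cd74, the invariant chain, rose by 1.99 ± 0.41 and H2-Ab1 by 1.65 ± 0.29. Of 19 B cell markers 8 rose and 1 fell (6 and 0 with NKT replicates 2 and 3 averaged, 3 and 0 with the Gapdh covariate), led by Fcer2a (CD23) with 6.87, 6.58 and 6.58 in NKT arrays, against 3.49, 3.48 and 3.54 in CD8aaT arrays and Cd72 with 6.47, 7.30 and 7.38 in NKT arrays, against 4.26, 3.75 and 3.64 in CD8aaT arrays. Ms4a1 (CD20) had 9.50, 7.65 and 7.80 in NKT arrays, against 5.49, 4.96 and 5.05 in CD8aaT arrays, and its brighter probe set differed by 1.69 ± 0.47.

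Summed over each list on the linear scale, class II genes came to 1543 to 2982 in NKT arrays and 792 to 847 in CD8aaT arrays, and B cell markers to 2217 to 3384 in NKT arrays and 1404 to 2121 in CD8aaT arrays. Macrophage and monocyte markers came to 3374 to 3544 in NKT arrays and 2609 to 2944 in CD8aaT arrays, with 8 of 28 higher and 2 lower (7 and 1 with NKT replicates 2 and 3 averaged, 3 and 1 with the Gapdh covariate). Apoe, a lipid carrier, was higher by 2.21 ± 0.24, Lyz2, the lysozyme of myeloid cells, by 2.02 ± 0.22, Mpeg1 by 1.53 ± 0.17 and Csf1r by 1.20 ± 0.12. The part that other cells in the sort had in these differences was not tested, and deposited RMA values give no true zero, so no marker can be read as absent. Dendritic cell markers overlapped in their sums (1339 to 1840 in NKT arrays, 1204 to 1413 in CD8aaT arrays), with Cd83, Irf8, Relb and Itgax higher of 14. Erythroid and platelet markers overlapped too (948 to 1368 in NKT arrays, 986 to 1241 in CD8aaT arrays). Of these 2 of 13 rose (15.4%) and 3 fell (23.1%), beside 11.4% and 11.2% of all probe sets, or 1 and 1 with NKT replicates 2 and 3 averaged. Granulocyte and mast cell markers (1251 to 1363 in NKT arrays, 921 to 1070 in CD8aaT arrays) had 1 of 23 higher, Mmp9, and 3 lower. Their sums include Mmp9, which was 12.5-fold higher in NKT arrays. The median difference over this list was 0.002, with 12 members above zero and 11 below. The higher sum is therefore not read as a rise of granulocyte and mast cell markers as a group. Thymic stroma and fibroblast markers summed lower in NKT arrays, at 1523 to 1722 against 1773 to 2362 in CD8aaT arrays. Of 37 genes 4 fell, Col4a1 (-1.37 ± 0.14) and Col3a1 (-1.15 ± 0.34) among them. That is 10.8%, no more than the 11.2% of all probe sets. With NKT replicates 2 and 3 averaged 1 fell, beside 4.15% of all probe sets.

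The classical class I genes H2-K1 and H2-D1 rose by 1.66 ± 0.17 and 0.73 ± 0.17 on their brightest probe sets, with Tap1, a subunit of the peptide transporter, at 1.01 ± 0.15 and Cd1d1, which presents lipids to NKT cells, at 1.73 ± 0.19. In all 5 of 16 class I genes rose and 0 fell (3 and 0 with NKT replicates 2 and 3 averaged), and H2-K1 probe sets disagreed in sign. Interferon-induced genes went both ways, 9 of 35 higher (25.7%) and 4 lower (11.4%, near the 11.2% of all probe sets). With NKT replicates 2 and 3 averaged 4 were higher and 1 lower, and with the Gapdh covariate 0 and 0. Irf8, Ly6e, Irf1 and Tap1 rose by 1.34, 1.22, 1.06 and 1.01, while Ifit1, Isg15, Mx2 and Ifi27l2a fell by 1.76, 1.51, 1.25 and 1.10.

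**Figure D3:**
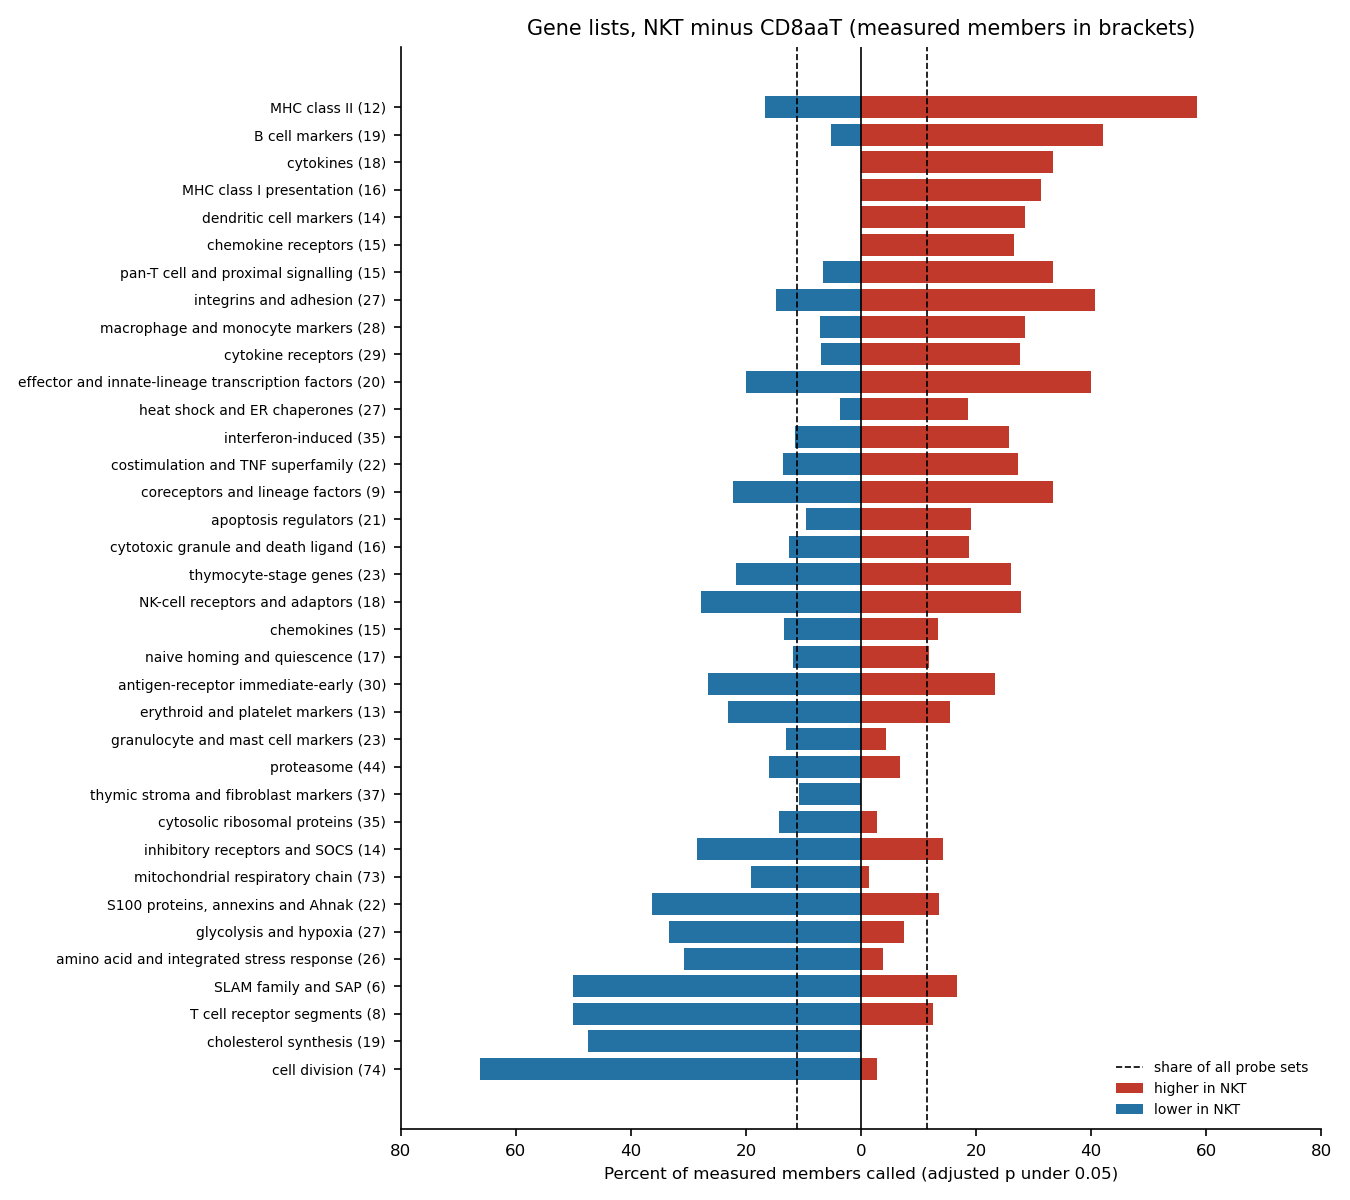
Percent of the measured members of 36 gene lists that were called higher (red, right) or lower (blue, left) in NKT than in CD8aaT arrays at an adjusted p under 0.05; dashed lines give the shares over all probe sets, 11.4% and 11.2%. MHC class II and B cell markers have the largest shares higher and cell division the largest share lower.

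Genes of cell division were lower in NKT arrays as a group, 49 of 74 measured against 2 higher, beside 11.2% and 11.4% of all probe sets. The list median was -1.04, it stayed below zero without further normalization (-0.31, where the median of all probe sets was 0.60) and with median centring (-1.04). With NKT replicates 2 and 3 averaged 41 fell and 1 rose, and with the Gapdh ratio as a covariate 20 fell and 0 rose. Mki67, the antigen Ki-67 of cycling cells, had 5.27, 4.41 and 4.37 in NKT arrays, against 7.79, 7.36 and 8.12 in CD8aaT arrays. Top2a, which untangles DNA before division, had 5.07, 4.98 and 5.12 in NKT arrays, against 8.40, 7.53 and 7.90 in CD8aaT arrays, and Stmn1, which loosens microtubules, had 6.97, 6.04 and 6.14 in NKT arrays, against 10.28, 9.26 and 10.02 in CD8aaT arrays. The groups were apart on every array, with decreases of 7.39-fold to 11.1-fold in these 3. The other probe sets of Mki67 and Stmn1, at -0.37 and -0.25, did not pass, nor did those of Pclaf, at -0.44 and -0.40. Kif22, a motor of the mitotic spindle, fell by 2.83. The 2 genes that went the other way were Ccnd2 (cyclin D2, 0.94 ± 0.17), which acts at the entry to the cycle, and Rfc1 (0.70 ± 0.10), a clamp loader. E2f8, Pclaf and Chek1, which serve the S phase and its checkpoint, were among the 15 largest decreases at -3.31, -3.02 and -2.89.

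The promoters of many cell cycle genes hold CCAAT boxes and a CHR element, short motifs through which such genes are known to be regulated together. Windows from 250 bases before to 50 after the start, from RefSeq on GRCm38.p6, were found for 41 of the 49 genes that fell, in 47 windows. CCAAT was in 74.5% of them, against 37.4% of all 32851 windows, and TTTGAA, the CHR letters, in 23 of 47 (48.9%), against 17.9% of all. The measured list as a whole, fallen or not, had CCAAT in 72.9% and TTTGAA in 41.4% of 70 windows. Both strands were searched, and the 2 motifs did not overlap in the windows printed here. Ccnb2 and Cdk1, the cyclin and kinase that start mitosis, are shown because each window holds 3 CCAAT and 2 TTTGAA matches, and they were chosen after their values were seen (-2.70 ± 0.31 and -2.70 ± 0.24). Capitals mark the matches, with CCAAT on the other strand reading ATTGG. The Ccnb2 window is chr9:70421505-70421804 and the Cdk1 window chr10:69352863-69353162, both on the minus strand and written 5′ to 3′ along the gene.
Ccnb2: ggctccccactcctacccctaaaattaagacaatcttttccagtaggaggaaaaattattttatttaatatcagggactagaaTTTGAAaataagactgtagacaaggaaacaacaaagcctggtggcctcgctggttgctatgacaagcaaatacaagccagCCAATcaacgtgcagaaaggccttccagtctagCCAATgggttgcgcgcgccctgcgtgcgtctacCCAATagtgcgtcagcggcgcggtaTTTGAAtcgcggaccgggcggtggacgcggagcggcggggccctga
Cdk1: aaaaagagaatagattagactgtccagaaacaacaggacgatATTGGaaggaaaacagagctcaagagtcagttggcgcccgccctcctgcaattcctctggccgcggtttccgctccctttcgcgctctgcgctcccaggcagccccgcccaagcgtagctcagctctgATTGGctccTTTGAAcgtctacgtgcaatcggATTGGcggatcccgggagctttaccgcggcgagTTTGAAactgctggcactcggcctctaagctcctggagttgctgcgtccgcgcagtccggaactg

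Cholesterol and fatty acid synthesis was the second group that was lower, with 9 of 19 measured genes down and 0 up (7 and 0 with NKT replicates 2 and 3 averaged, 2 and 0 with the Gapdh covariate). The median was -0.55 and turned to 0.25 without further normalization, which is below the 0.60 of all probe sets. Idi1, which isomerises the 5-carbon building block of sterols, had 4.97, 5.93 and 5.84 in NKT arrays, against 9.19, 8.67 and 8.82 in CD8aaT arrays. Scd2, a desaturase of fatty acids, had 7.42, 8.01 and 7.91 in NKT arrays, against 11.16, 10.30 and 10.93 in CD8aaT arrays, and Fdps and Cyp51, a farnesyl synthase and a sterol demethylase, fell by 2.34 and 1.99. Hmgcs1, which makes the precursor of mevalonate, fell by 1.96. Its window (chr13:119690101-119690400, plus strand, GRCm38.p6) is shown, chosen after its value was seen, because it alone of 18 windows of the list holds CACCCCAC, the core of a known sterol element. The 18 windows cover 14 of the 19 measured genes, and 5 of the 9 that fell. The core is in 2.87% of all windows. Capitals mark it and 4 CCAAT boxes. CCAAT was in 15 of the 18 windows (83.3%).
Hmgcs1: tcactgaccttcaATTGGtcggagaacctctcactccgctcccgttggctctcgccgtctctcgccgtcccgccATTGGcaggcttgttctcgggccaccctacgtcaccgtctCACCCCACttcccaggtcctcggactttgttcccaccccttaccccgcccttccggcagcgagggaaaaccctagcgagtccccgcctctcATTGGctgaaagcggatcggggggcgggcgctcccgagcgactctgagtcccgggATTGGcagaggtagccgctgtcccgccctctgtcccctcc

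Some further metabolic genes were lower in NKT arrays, beside 11.2% of all probe sets (4.15% with NKT replicates 2 and 3 averaged). The medians of these lists turned positive without further normalization though below the 0.60 of all probe sets. Of 26 genes of amino acid supply and the integrated stress response 8 fell and 1 rose (5 and 0 with NKT replicates 2 and 3 averaged). Shmt1, which interconverts serine and glycine, had 4.29 ± 0.03 in NKT arrays and 6.41 ± 0.52 in CD8aaT arrays (SD, n = 3 each). Psat1, an enzyme of serine synthesis, had 6.60, 7.03 and 7.20 in NKT arrays, against 9.33, 8.52 and 9.26 in CD8aaT arrays. Slc7a5, a chain of the leucine transporter, fell by 1.44. Of 27 glycolysis and hypoxia genes 9 fell and 2 rose (6 and 1 with NKT replicates 2 and 3 averaged, 4 and 0 with the Gapdh covariate), with Ddit4, Tpi1, Aldoc and Pgam1 down by 1.62, 1.11, 1.10 and 1.06 and the glucose transporter Slc2a3 up by 1.49 ± 0.24. The respiratory chain had 14 of 73 lower (19.2%) and 1 higher, but 3 and 0 with NKT replicates 2 and 3 averaged, about the share of all probe sets. The proteasome had 7 of 44 lower (15.9%) and 3 higher (4 and 2 with NKT replicates 2 and 3 averaged), and ribosomal proteins 5 of 35 lower (14.3%) and 1 higher (2 and 1). Both shares lie near the 11.2% of all probe sets, so no difference of these 2 lists is read from them. Ahr, a sensor of aromatic ligands that gut lymphocytes need, was among the largest decreases with 5.04, 4.41 and 4.48 in NKT arrays, against 8.37, 6.92 and 8.62 in CD8aaT arrays. A list of S100 proteins, annexins and Ahnak also holds Lgals1 and Crip1. Of its 22 measured genes 8 fell and 3 rose (4 and 2 with NKT replicates 2 and 3 averaged). Lgals1, Anxa2, S100a6 and Crip1 were lower by 2.33, 2.24, 1.87 and 1.66, and Anxa1 was higher by 2.23 ± 0.28.

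The differences were then set beside CD4T minus CD8abT, in which 2137 probe sets were called (17.2%), 1050 of them higher (8.45%) and 1087 lower (8.75%), in a fit over 12 arrays. CD4T replicates 2 and 3 were alike in the 18S control, at 59.2 and 54.4, against 1326 in CD4T replicate 1. The NKT arrays split in the same way, with 52.7 and 56.3 in replicates 2 and 3 against 675 in NKT replicate 1. Whether these CD4T arrays hold separate samples is not known, and they were not averaged. Without CD4T replicate 2 the count was 999, and without CD4T replicate 3 it was 1052. The comparisons share no array. They do share the change of source, from RTOC cells under agonist to spleen cells, and of coreceptor (Cd8a differed by -5.31 in CD4T minus CD8abT). They share the change of cell number too, about 100000 against about 50000. The agonist dose is not shared, being written as 10 mM for CD8aaT and 100 nM for CD8abT cells. The shift of the Gapdh 3'/5' ratio is shared as well, at 5.83 to 8.48 in CD4T arrays and 9.47 to 30.4 in CD8abT arrays. Which of these shared changes the shared calls go with cannot be told apart. In both, 1485 probe sets were called in the same direction, 52.9% of the calls of NKT minus CD8aaT and 69.5% of those of CD4T minus CD8abT, and 11 in opposite directions. Of the 818 at least 2-fold, 528 (64.5%) were called the same way in CD4T minus CD8abT. Across the 12422 probe sets the differences correlated at a Pearson r of 0.78 and a Spearman rho of 0.77, which describes probe sets and not replicates. The cell division list was alike, with 47 of 74 lower and a median of -0.85 in CD4T minus CD8abT. Mki67 differed by -3.02 ± 0.37 there, Top2a by -2.71 ± 0.25, Itgae by -3.71 ± 0.24 and Klrg1 by 2.84 ± 0.29. None of these 4 passed the test of the difference between the comparisons.

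That test, (NKT minus CD8aaT) minus (CD4T minus CD8abT), equals NKT minus CD4T less CD8aaT minus CD8abT, and called 52 probe sets (0.419%), of which 37 were higher (0.298%) and 15 lower (0.121%). Arrays were also taken as paired by replicate number within a source, which no label states and which was not tested against other pairings. A fit blocked on that number called 232 (1.87%), of which 119 were higher (0.958%) and 113 lower (0.91%), and it kept all 52. Of the 52, 40 were also called the same way in NKT minus CD8aaT. This contrast is called source-adjusted here, although it holds only if source, coreceptor gate and RNA quality shift both lineages alike, which was not tested. It does not adjust for the agonist dose, which the labels write as 10 mM for CD8aaT and 100 nM for CD8abT cells. Dose and lineage of the RTOC cells cannot be told apart in it.

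**Figure D4:**
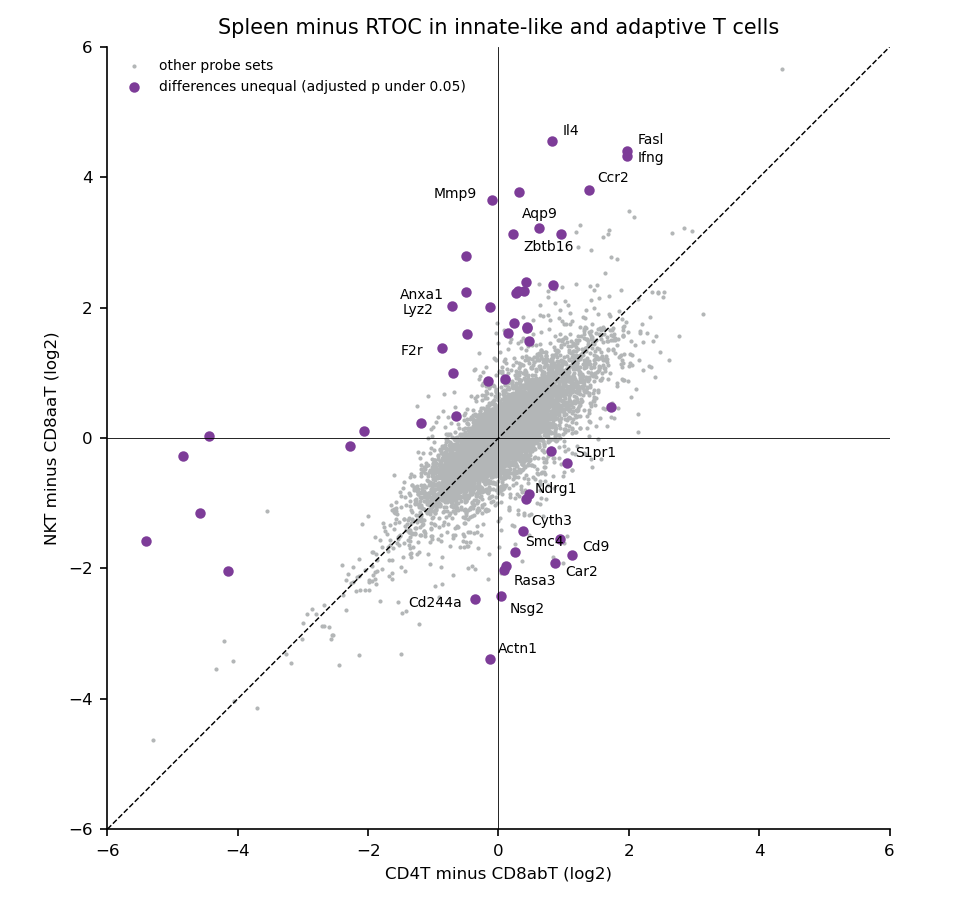
NKT minus CD8aaT (vertical axis, log2) against CD4T minus CD8abT (horizontal axis, log2) for 12422 probe sets, with the dashed line where both are equal. Purple points are the 52 probe sets whose differences were unequal at an adjusted p under 0.05, and the 20 named ones carry gene symbols; Il4, Mmp9 and Zbtb16 lie far above the line and Actn1, Nsg2 and Cd244a far below it.

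Among the genes higher after this adjustment, Mmp9, Il4 and Zbtb16 were high in the NKT arrays alone. On the scale normalized over 12 arrays, Mmp9 stood at 8.66, 9.11 and 9.20 in NKT arrays, 5.58, 5.28 and 5.36 in CD8aaT arrays, 5.48, 5.38 and 5.13 in CD4T arrays and 5.53, 5.34 and 5.43 in CD8abT arrays. The NKT arrays lay more than 3 units above all others, and the adjusted difference was 3.69 ± 0.23 (limma adjusted p = 1.91e-05). Il4 stood at 9.13, 7.76 and 7.64 in NKT arrays, 3.44, 3.75 and 3.87 in CD8aaT arrays, 4.57, 4.27 and 4.40 in CD4T arrays and 3.27, 3.61 and 3.90 in CD8abT arrays, with an adjusted difference of 3.66 ± 0.47. Zbtb16 had 7.74, 6.47 and 6.67 in NKT arrays, 3.54, 4.03 and 4.06 in CD8aaT arrays, 3.87, 3.83 and 3.84 in CD4T arrays and 4.01, 3.37 and 3.48 in CD8abT arrays (2.85 ± 0.42, limma adjusted p = 0.0135). Ifng, Fasl and Ccr2 also differed in the adaptive pair, by 1.98, 1.97 and 1.38, and their adjusted differences were 2.30 ± 0.31, 2.36 ± 0.35 and 2.36 ± 0.35. Lyz2 (2.70 ± 0.34) and Anxa1 (2.69 ± 0.36), which are abundant in myeloid cells, Aqp9, a glycerol channel (2.55 ± 0.46), and F2r, a thrombin receptor (2.23 ± 0.40), completed the 10 largest. The other F2r probe sets, at adjusted differences of -0.17 and -0.10, the other Lyz2 probe set, at 0.35, and 1 of 2 further Anxa1 probe sets, at 0.47, did not pass. Nor did the other Il4 probe sets, at 0.74, 0.57 and 0.29, or the other Zbtb16 probe set, at 0.13. The adjusted results of Il4 and Zbtb16 thus rest on 1 probe set each, whereas the other Mmp9 probe set passed, at 1.26. Without 1 array or another, 5 of these 10 lost the call, namely Zbtb16, Aqp9, Fasl, Ccr2 and F2r.

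Among the genes lower after the adjustment, Actn1, an actin crosslinker, stood at 7.13, 6.75 and 6.63 in NKT arrays, 10.45, 10.29 and 9.91 in CD8aaT arrays, 10.58, 10.48 and 10.36 in CD4T arrays and 11.08, 10.91 and 9.83 in CD8abT arrays. Only the NKT arrays were low, and the adjusted difference was -3.25 ± 0.41, with its other probe sets at -2.48, which passed, and 0.10, which did not. Nsg2, a vesicle protein, had the same form, with 5.35, 5.68 and 5.63 in NKT arrays, 8.36, 7.51 and 7.94 in CD8aaT arrays, 7.65, 8.01 and 8.19 in CD4T arrays and 8.14, 7.78 and 7.81 in CD8abT arrays (-2.42 ± 0.31). Cd9 ranged from 5.73 to 6.30 in NKT arrays, 7.39 to 8.14 in CD8aaT arrays and 5.84 to 6.31 in CD8abT arrays. The CD4T arrays stood between, with 7.24 and 7.32 in replicates 2 and 3 and less in replicate 1, below all CD8aaT and above all CD8abT arrays (-2.89 ± 0.31, limma adjusted p = 0.00192). Car2, a carbonic anhydrase, was likewise highest in CD8aaT arrays, with 5.37, 5.47 and 5.47 in NKT arrays, 6.89, 7.21 and 7.86 in CD8aaT arrays, 5.51, 5.50 and 5.66 in CD4T arrays and 4.55, 4.83 and 4.71 in CD8abT arrays. Cd244a was high in CD8aaT arrays only, at 6.13 to 6.74 on the 12-array scale, and had an adjusted difference of -2.07 ± 0.27. S1pr1, the receptor by which T cells leave thymus and nodes, had 3.92, 3.89 and 4.09 in NKT arrays, 4.53, 4.33 and 4.20 in CD8aaT arrays, 5.19, 5.11 and 5.34 in CD4T arrays and 3.83, 4.33 and 4.31 in CD8abT arrays, with CD4T arrays highest (-1.44 ± 0.22), but its other probe set was at 0.06 and did not pass. The genes Rasa3, Smc4, Cyth3 and Ndrg1 had adjusted differences of -2.05, -2.05, -1.76 and -1.35, and these 4 and S1pr1 lost the call without 1 array or another. The other probe sets of Cyth3 and Ndrg1, at 0.20 and -1.25, did not pass.

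By list, few members differed between the comparisons. The counts below are to be read beside the adjusted shares of all probe sets, 0.298% higher and 0.121% lower. With the block these shares are 0.958% and 0.91%. At such shares a count of 0 lies near that of all probe sets, so no likeness of a list is read from it. Of the cytokines 2 of 18 were higher after adjustment, Il4 and Ifng, and of 18 NK-cell receptors 2 were higher, Klrk1 (1.93 ± 0.26) and Klra3 (1.94 ± 0.21), and 1 lower, Cd244a (3 and 2 with the block). With the replicate block 4 of 20 effector transcription factors passed, the 3 beside Zbtb16 being Hopx, Bhlhe40 and Rora, named after their values were seen. Of 74 cell division genes only Smc4 was lower and 0 higher. Of 19 cholesterol genes 0 passed, and with the block 3 were lower, Cyp51, Hmgcs1 and Sqle, at -1.49, -1.52 and -1.33, of which Sqle was named after its value was seen. Of 17 naive homing and quiescence genes, 2 higher and 2 lower in the direct comparison, 2 were lower after adjustment, Actn1 and S1pr1, and 5 with the block. Klf2, which turns on S1pr1 in resting T cells, was 1 of the 5, at -1.24 (block adjusted p = 0.0154), and had 6.71, 6.31 and 6.39 in NKT arrays, against 7.65, 8.13 and 7.45 in CD8aaT arrays in the direct comparison. MHC class II had 0 of 12, and 3 with the block, and B cell markers 0 of 19, and 1 with the block.

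**Figure D5:**
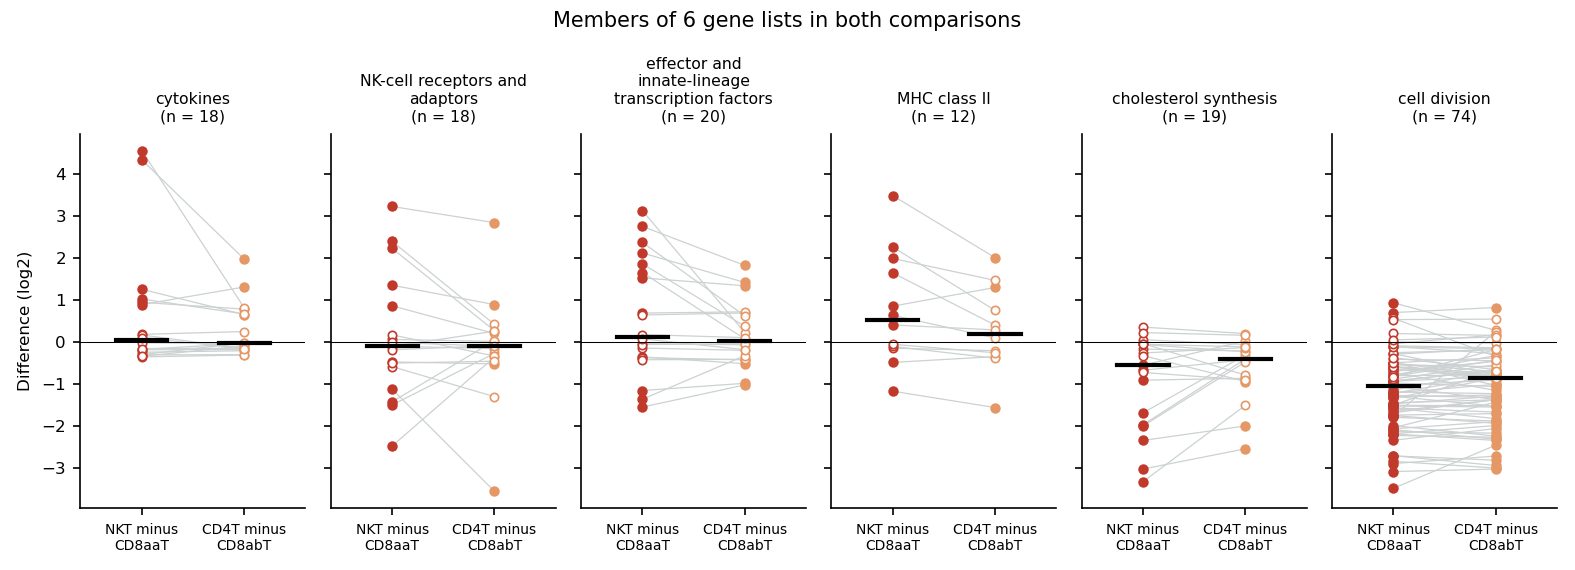
NKT minus CD8aaT (red) and CD4T minus CD8abT (orange) differences of each measured member of 6 gene lists on the log2 scale, joined by gene; filled points passed at an adjusted p under 0.05, and black bars are medians. Cell division genes keep like values in both comparisons (medians -1.04 and -0.85), while Il4, Zbtb16, Klrk1 and Klra3 have larger differences in NKT minus CD8aaT.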

How the data were processed

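Sorted mouse lymphocytes were measured on Affymetrix arrays, 1 a sample. RNA was extracted with TRIZOL and amplified before labelling, per the labels' protocols. The authors deposited linear intensity values, made with RMA per the submitters' processing notes (version and settings not given in the sources used here). RMA compresses the differences of dim probe sets, and no detection call was used.

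Of 12488 probe sets, 66 controls were left out. The platform annotation gives 1 symbol to 10833 of the rest, several to 396, and does not list 1193. Values were log2 transformed, quantile normalized and fitted by lmFit and eBayes of limma 3.58.1 (R 4.3.3). Two-sided p-values had Benjamini-Hochberg adjustment over 12422 probe sets and calls under 0.05. NKT minus CD8aaT used 6 arrays, and the contrasts with CD4T and CD8abT used 12 arrays and 4 group means. Fits were tested on simulated data.

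Gene lists (36) used the brightest probe set of a gene. The members and lists were chosen with earlier results of these data known. Named genes were the 15 called genes with the largest difference in each direction without overlap between groups, leaving out sort gate genes and immunoglobulin and T cell receptor segments, 10 in each direction for the source-adjusted contrast, up to 4 called members of a list in each direction, and the gate and marker genes.

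Replicate numbers come from the titles. Deviations from group means of same-numbered arrays correlated at 0.74, 0.64 and 0.66 between NKT and CD4T and at 0.59, 0.55 and 0.64 between CD8aaT and CD8abT, so these were taken as paired, which no label states. Arrays of unlike number were not compared. The values therefore cannot tell pairing at each number from 1 array that stands apart in both groups. Counts with the block rest on this pairing. Replicates are called biological in the series without a statement on separate animals, so the p-values cover only the spread among these arrays, which may be technical. The number of arrays limits the precision.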

Additional observations from a re-analysis of the deposited data

Results flagged for a closer look

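The results here stand out because NKT minus CD8aaT and CD4T minus CD8abT differed from each other by limma's test of that difference, on the 12-array scale. Among gate and receptor genes, Cd8b1 had the largest value, 4.47, with CD8abT arrays alone at a high level. The gamma chain segments followed, Trgv1 at 3.76 and Trgv4 at 3.44, both far higher in CD8abT than in CD4T arrays, and the probe set shared by Klrb1b and Klrb1c had 3.25. The populations were sorted by CD8b and NK1.1, so the values of Cd8b1 and of the Klrb1b and Klrb1c probe set were set by the gates. They are not read as results. Of the genes named by rank, those above zero were Mmp9 (3.69), Il4 (3.66), Zbtb16 (2.85), Lyz2 (2.70), Anxa1 (2.69), Aqp9 (2.55), Fasl (2.36), Ccr2 (2.36), Ifng (2.30) and F2r (2.23). The gene lists added Klra3 (1.94), Klrk1 (1.93) and Cd82 (1.45). Those below zero were Ndrg1 (-1.35), S1pr1 (-1.44), Cyth3 (-1.76), Smc4 (-2.05), Rasa3 (-2.05), Cd244a (-2.07), Nsg2 (-2.42), Car2 (-2.75), Cd9 (-2.89) and Actn1 (-3.25). Groups of 3 arrays were not put to an outlier test; NKT replicate 1 stood apart from the other NKT arrays, with an SD of its log2 difference from them of 0.377 and 0.379, against 0.121 between replicates 2 and 3.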

How the results depend on the processing

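Of 12422 probe sets, 2805 were called in NKT minus CD8aaT, and 9072 without further normalization, 818 with a minimum difference of 1, 1113 with NKT replicates 2 and 3 averaged and 331 with the Gapdh ratio as a covariate. Leaving out 1 array gave 1107 (without NKT replicate 2) to 3052 (without NKT replicate 1), and 1109 without NKT replicate 3. Median centring, quantile normalization over 16 arrays, all 16 arrays in one fit, an offset of 32, leaving out the dimmest 25%, and trend with robust moderation gave 2276 to 3349. Deviations of same-numbered arrays correlated at 0.0019, 0.175 and -0.178 between NKT and CD8aaT, so they share only a number, and the replicate block gave 2124 there.

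The source-adjusted contrast called 52, and 85 with all 16 arrays, 232 with the replicate block, and 26 (without NKT replicate 2) to 119 (without CD4T replicate 1) without 1 array, with 29 without NKT replicate 3, 32 without CD8aaT replicate 3 and 29 without CD4T replicate 2. CD4T minus CD8abT called 2137, 7862 without further normalization, and 999 (without CD4T replicate 2) to 3287 (without CD4T replicate 1) without 1 array, with 1052 without CD4T replicate 3; the block gave 2699. The 1485 shared calls became 7212 without further normalization and 690 (without NKT replicate 3) to 1717 (without CD4T replicate 1) without 1 array, with 705 without NKT replicate 2, 836 without CD4T replicate 2 and 876 without CD4T replicate 3. The cause of these shifts was not tested, beyond the smaller number of arrays.

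Signs turned as follows. Over left-out arrays Cd3e ranged from -0.027 without CD8aaT replicate 3 to 0.285 without CD8aaT replicate 2, and it passed at 0.866 without further normalization. Cd8b1 went to -0.14 without NKT replicate 1, -0.15 without CD8aaT replicate 1 and -0.11 with the Gapdh covariate. Without further normalization, which raised the median of all differences by 0.60, the dim Zbtb16 probe set was at 0.62, Ccl1 at 0.038, Id1 at 0.20, Cd99l2 at 0.13, Socs1 at 0.15, Traf4 at 0.034, Tnfrsf21 at 0.18, Itga3 at 0.18, H2-Ea at 0.066, Spib at 0.17, Cpa3 at 0.26, Alas2 at 0.28, Pf4 at 0.13, Col1a2 at 0.28 and Hspe1 at 0.074. The replicate block changed the call of 14 of 207 named genes in NKT minus CD8aaT and of 0 of 20 in the source-adjusted contrast.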

Other observations

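Immediate-early genes of antigen receptor signalling split between the populations, 7 of 30 higher in NKT arrays and 8 lower (5 and 3 with NKT replicates 2 and 3 averaged). The phosphatases Dusp1 and Dusp6, which switch off MAP kinases, rose by 2.18 ± 0.23 and 1.87 ± 0.31, and Nfkbia, the inhibitor of NF-kB, by 1.27 ± 0.19. Myc, a driver of growth, and Nr4a2, an orphan receptor induced by receptor signals, fell by 1.75 and 1.25. Thymocyte-stage genes also went both ways, 6 of 23 higher and 5 lower (3 and 2 with NKT replicates 2 and 3 averaged). Itm2a, known from selected thymocytes, was lower by 1.92 and Sox4, a factor of early thymocytes, by 0.85, while Dtx1, a Notch target, was higher by 1.62 ± 0.20. Of 27 heat shock and endoplasmic reticulum chaperone genes 5 rose and 1 fell (3 and 0 with NKT replicates 2 and 3 averaged), with Hspa5, the main chaperone of the endoplasmic reticulum, at 1.47 ± 0.22 and Hsph1 at 1.50 ± 0.35. In CD4T minus CD8abT, Nfkbia and Dusp1 were called in the same direction, at 1.26 and 1.70. Itm2a, Nr4a2 and Hsph1 lost the call without NKT replicate 2 or without NKT replicate 3.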
